A study of Mus musculus with 28 samples.

Results

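The comparison described here is between tibial cartilage of mice 6 weeks after surgery that destabilizes the medial meniscus (DMM) and so starts osteoarthritis, and cartilage of mice 6 weeks after a sham operation. Arrays were chosen by their labels alone, with cartilage as the source and the operation and week in the title, which gave 6 of the 28 arrays of the study. The 3 DMM arrays and the 3 sham arrays were each made from RNA pooled from 3 mice, so a value stands for a pool. All mice were wild-type C57BL6 males operated on in both knees at 10 to 12 weeks of age. In DMM mice the ligament that ties the medial meniscus to the tibia was cut, and in sham mice it was exposed and left whole. Cartilage of the medial tibial plateau was cut from frozen, decalcified sections by laser, and its small RNA was measured on 1-colour Agilent mouse miRNA arrays. The deposited table has 569 miRNA rows, and the 438 with a value on each of the 12 cartilage arrays, those of 1 week included, were tested. The other cartilage arrays came from DMM and sham mice 1 week after surgery, in 3 pools each, and the 8 bone arrays used below from subchondral bone of single mice at 6 weeks, 4 after DMM and 4 after sham. No question beyond which miRNAs differ in each tissue and at each week is stated in the labels.

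A miRNA is a short RNA that guides a silencing protein to messenger RNAs, and it finds them mainly through its seed, the bases just behind its first base. It is cut from a hairpin precursor, and either side of the hairpin, the 5p arm or the 3p arm, can become the mature miRNA. In cartilage, miR-140 is the best known miRNA: it is made from an intron of a ubiquitin ligase gene in chondrocytes, and mice that lack it develop early osteoarthritis-like changes.

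Among miRNAs with a mature sequence in the RefSeq-derived table (GRCm38.p6 annotation, 364 of 438), 12 hold 3 UG pairs in a row. They are shown first because many of the larger rises were among them. Capitals mark the longest stretch in which U and G alternate, and sequences run 5′ to 3′.
miR-1187: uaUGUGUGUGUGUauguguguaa
miR-3082-5p: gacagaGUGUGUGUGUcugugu
miR-574-5p: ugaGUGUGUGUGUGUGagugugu
miR-32-3p: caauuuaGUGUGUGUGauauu
miR-669n: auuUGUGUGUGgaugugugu
miR-672-5p: ugagguugguguacUGUGUGUGa
miR-6348: ucagccuuuauaagGUGUGUGU
miR-466j: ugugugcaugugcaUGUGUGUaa
miR-206-3p: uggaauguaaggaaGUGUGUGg
miR-294-3p: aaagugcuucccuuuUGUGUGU
let-7k: ugagguaggagguUGUGUG
let-7b-5p: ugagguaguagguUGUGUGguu
The alternating stretch was 13 bases long in miR-574-5p, 11 in miR-1187, 10 in miR-3082-5p and 9 in miR-32-3p, and 6 in both let-7 miRNAs. The first 9 of these sequences have 9 different seeds and come from 7 chromosomes, with no pair of them within 50 kb. For example, miR-1187 lies at chr5:82798964-82798986 on the minus strand outside the span of any annotated gene, and miR-574-5p at chr5:64970328-64970350 on the plus strand within the spans of Fam114a1 and Tlr6. miR-32-3p lies at chr4:56895232-56895252 on the minus strand within the span of Tmem245, and miR-3082-5p at chr17:25831406-25831427 on the minus strand within the spans of Jmjd8 and Stub1.

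The other sequences shown are those of miRNAs that carry results without such a repeat, with the seed, bases 2 to 8, in capitals.
miR-6931-5p: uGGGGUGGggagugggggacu
miR-31-5p: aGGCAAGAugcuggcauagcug
miR-15a-3p: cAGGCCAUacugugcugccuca
miR-16-1-3p: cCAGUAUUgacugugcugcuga
miR-195a-3p: cCAAUAUUggcugugcugcucc
miR-15a-5p: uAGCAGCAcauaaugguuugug
miR-15b-5p: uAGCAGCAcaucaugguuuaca
miR-107-3p: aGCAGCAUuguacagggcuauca
miR-379-3p: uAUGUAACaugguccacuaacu
miR-411-3p: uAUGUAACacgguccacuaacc
miR-210-3p: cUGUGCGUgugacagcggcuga
miR-451a: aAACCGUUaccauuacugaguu
miR-223-3p: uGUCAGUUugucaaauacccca
miR-15a-5p and miR-15b-5p share a seed, as do miR-379-3p and miR-411-3p. miR-6931-5p lies at chr11:102999896-102999916 on the minus strand within the spans of Dcakd and Gm34620, and miR-107-3p at chr19:34820700-34820722 on the minus strand within the span of Pank1, a pantothenate kinase gene. Whether a miRNA lies in an exon or an intron was not analysed here.

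One label field names the tissue of the cartilage arrays as subchondral bone, so the source field was checked against miR-140-3p. Its log2 signal was 13.1 to 13.7 over the 12 arrays with cartilage as their source and 8.94 to 9.98 over the 16 with bone, and the ranges did not overlap. Sham replicate 1 stood apart among the 6-week arrays: its deviations from the group mean had an SD of 0.287 across miRNAs, against 0.164 to 0.205 in the other 5. A rule for outliers, run on 4 groups, flagged 0 arrays, so sham replicate 1 was kept. The main counts below are also given without it. The arrays also lay along a gradient, the first component of the spread between bone arrays within their groups. The cartilage arrays scored -1.17, -0.89 and -1.26 in sham replicates 1, 2 and 3, and 0.71, 0.57 and -0.60 in DMM replicates 1, 2 and 3. All 3 DMM scores were above all 3 sham scores, and with this score as a covariate 0 of 438 miRNAs passed, with 20 at an unadjusted p under 0.05. With the covariate the median of the 15 largest rises went from 1.30 to 0.67, that of the 12 miRNAs with UG repeats from 0.99 to 0.63 and that of the 15 largest falls from -0.55 to -0.40, and all 30 largest rises and falls kept their sign. The gradient and the operation both separate the same 3 pools from the other 3, so their parts in the results cannot be told apart.

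Of the 438 miRNAs, 42 were higher after DMM (9.59%) and 32 lower (7.31%) at a limma adjusted p under 0.05, and 13 of the higher and 2 of the lower by at least 2-fold. All 3 DMM arrays were above all 3 sham arrays for 76 miRNAs (17.4%) and below them for 79 (18%). The median difference over all 438 was -0.04 on the log2 scale. Without sham replicate 1 the counts were 78 higher and 88 lower. They were 16 and 4 without DMM replicate 2, 33 and 11 without DMM replicate 1, 23 and 4 without sham replicate 2, and 22 and 9 without sham replicate 3. All differences below are log2 signal in DMM minus log2 signal in sham.

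The miRNAs with UG repeats were mostly higher in cartilage after DMM. Of the 12, 9 rose and 0 fell, and the median difference was 0.99, against 17 higher, 27 lower and a median of -0.05 among the 352 miRNAs with a sequence that lacks the repeat. miR-1187 had log2 signals of 9.31, 8.72 and 8.77 in sham replicates 1, 2 and 3 and of 10.38, 10.76 and 9.94 in the DMM replicates. The groups did not overlap, and the difference was 1.42 ± 0.23 (SE, limma adjusted p 0.0031), a 2.68-fold rise.

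miR-3082-5p had 9.70, 9.10 and 9.06 in sham and 10.69, 11.08 and 10.28 in DMM. miR-574-5p had 10.22, 9.77 and 9.86 in sham and 11.32, 11.61 and 10.83 in DMM. In both, sham replicate 1 was the highest sham array and DMM replicate 2 the highest DMM array, as in miR-1187, and the groups did not overlap. Their differences were 1.39 ± 0.22 and 1.30 ± 0.20 (SE, limma adjusted p 0.0031 each). miR-32-3p is the 3p arm of a miRNA whose 5p arm is the better known product. It had 7.28, 6.64 and 6.37 in sham and 7.92, 8.43 and 7.86 in DMM, a rise of 1.30 ± 0.25 (SE, adjusted p 0.00643). miR-669n had 8.32, 7.68 and 7.60 in sham and 9.06, 9.57 and 8.87 in DMM. It rose by the same 1.30, with the groups apart by 0.55 between their nearest arrays.

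The rises of miR-672-5p, miR-6348, miR-466j and miR-206-3p were smaller. miR-672-5p rose by 1.00 ± 0.23 and miR-6348 by 0.98 ± 0.24 (SE, limma adjusted p 0.012 and 0.0186). Both calls held in 3 of the 6 fits with a 6-week array left out. miR-466j rose by 0.86 ± 0.18 (SE). miR-206-3p, a skeletal muscle miRNA that promotes muscle differentiation, was dim, with 5.35, 5.22 and 5.13 in sham and 5.67, 5.94 and 5.66 in DMM. It rose by 0.53 ± 0.13 (SE, adjusted p 0.0166). The other 3 muscle miRNAs measured, miR-1a-3p, miR-133a-3p and miR-133b-3p, had -0.06, 0.04 and 0.05 with adjusted p of 0.955 each, values that rested on a bright DMM replicate 3. Without that array they had -0.68, -0.52 and -0.60 with adjusted p of 0.194 to 0.297. Their difference from miR-206-3p was not tested.

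The other 3 members of the group did not pass. miR-294-3p, from a cluster active in embryonic stem cells, had 0.43 ± 0.16 (adjusted p 0.0774) and let-7k 0.23 ± 0.11 (0.127). let-7b-5p, a member of the let-7 family that restrains growth-related messenger RNAs, was bright, with 13.79, 13.88 and 13.70 in sham and 13.30, 13.43 and 13.65 in DMM. It was the only 1 of the 12 with a difference below 0, -0.32 ± 0.12 (SE, adjusted p 0.0656). The mean log2 signal over the 12 was 7.94, 7.51 and 7.44 in sham replicates 1, 2 and 3 and 8.40, 8.77 and 8.32 in DMM replicates 1, 2 and 3. It was therefore highest among sham arrays in the replicate that stood apart. Without sham replicate 1, 10 of the 12 rose and the median was 1.22, and without DMM replicate 2, 5 rose and it was 0.82.

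Rises outside the sequence-defined group included the largest of all. Of the 42 higher miRNAs, 16 have no sequence here and were not searched for the repeat. Among these are miR-5099, miR-468-3p and the 5p arms of the miR-466, miR-467 and miR-669 families named below. miR-6931-5p, of which guanine and uracil make up 85.7%, had 8.09, 8.60 and 7.88 in sham and 10.20, 10.03 and 9.61 in DMM. The groups were 1.01 apart between their nearest arrays, and the difference was 1.76 ± 0.21 (SE, limma adjusted p 4.09e-04), a 3.39-fold rise. miR-5099 had 5.91, 5.78 and 5.83 in sham and 7.44, 7.37 and 7.13 in DMM. The SD over the 3 sham arrays was 0.07, and the rise of 1.47 ± 0.14 (SE) had the lowest adjusted p of all 438, 6.30e-05. These calls, like those of miR-1187, miR-3082-5p, miR-574-5p, miR-32-3p and miR-669n, held in each of the 12 fits with 1 cartilage array left out.

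The miR-466, miR-467 and miR-669 families come largely from a rodent-specific cluster in an intron of Sfmbt2. Taken by name, after their values were seen, they had 24 measured members, with a median of 0.75. Of these, 14 rose (58.3%, against 9.59% of all 438) and 0 fell. miR-669n and miR-466j, described above, are among the 14. Neither lies within the span of Sfmbt2: miR-669n lies on chromosome 3 within that of Slc30a7, and miR-466j on chromosome 10. The other measured members with a locus here, miR-466i-3p, miR-466q and miR-467f, lie outside Sfmbt2 too. For the remaining members no locus was available. miR-466i-5p was the brightest, with 11.61, 11.21 and 11.10 in sham and 12.68, 12.92 and 12.21 in DMM, a rise of 1.30 ± 0.19 (SE, limma adjusted p 0.00274). The rises of miR-669l-5p, miR-466m-5p and miR-669e-5p, 1.14, 1.06 and 1.05, held in all 12 fits with an array left out. miR-466f-5p rose by 0.88, miR-466h-5p by 0.86, miR-669b-5p and miR-467c-5p by 0.85, miR-669o-5p by 0.79, miR-466c-5p by 0.77, miR-669f-5p by 0.72 and miR-669k-5p by 0.67. The 10 that did not pass all had differences below 0, from -0.65 for miR-669p-3p and -0.60 for miR-669c-3p to -0.12 for miR-669h-3p, with adjusted p of 0.0726 to 0.703. Several were as large as the smaller rises. Members of these families differ in few bases, and how far the probes tell them apart was not tested. miR-468-3p, with 7.53, 6.94 and 6.73 in sham and 8.27, 8.67 and 8.01 in DMM, rose by 1.25 ± 0.23 (SE).

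**Figure D1:**
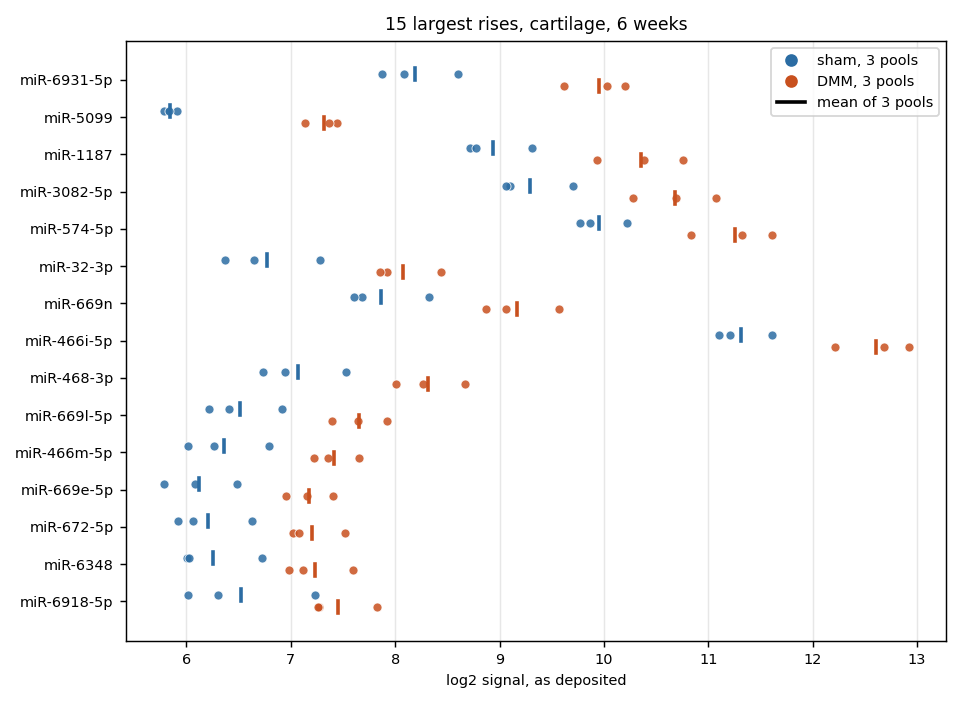
The 15 largest rises past the threshold, with the log2 signal as deposited on the horizontal axis, a dot for each pool (blue sham, orange DMM, 3 each) and a bar at each group's mean. The groups did not overlap for any of the 15, and replicate 1 is the highest sham dot for all but miR-6931-5p.

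Other rises were smaller. miR-31-5p, studied among other places in bone-forming cells, had 6.25, 6.26 and 5.81 in sham and 7.13, 6.96 and 6.77 in DMM. It rose by 0.85 ± 0.21 (SE, limma adjusted p 0.0183) with no overlap between groups. Of 4 measured 3p arms of the miR-15/16 family, 3 rose, miR-195a-3p by 0.77 ± 0.18, miR-16-1-3p by 0.56 ± 0.14 and miR-15a-3p by 0.46 ± 0.13 (SE). The fourth, miR-16-2-3p, had 0.33 ± 0.13 (SE, limma adjusted p 0.0788), with overlap between the groups. miR-15a-3p was near the low end of the arrays, with 5.65, 5.31 and 5.18 in sham and 5.74, 5.97 and 5.81 in DMM. miR-6918-5p rose by 0.93 ± 0.26 (SE, adjusted p 0.0303), and its nearest arrays, sham replicate 1 at 7.24 and DMM replicate 3 at 7.26, were almost level. The 27 higher miRNAs beyond the 15 largest rises had differences of 0.41 to 0.88, and 17 of these 27 had a mean level below the median of all 438.

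The difference between DMM and sham went with base composition across all miRNAs that have a sequence. Of 71 miRNAs with at least 70% guanine plus uracil, 14 were higher and 1 lower, with a median difference of 0.12. Of 88 with under 50%, 1 was higher and 14 were lower, with a median of -0.17. The 113 between 50% and 60% had 6 higher and 7 lower, and the 92 between 60% and 70% had 5 and 5. Across the 364 miRNAs the Pearson correlation between this share and the difference was 0.34 (Spearman 0.29), and it was 0.26 over the 352 without a UG repeat. The correlation with the share of adenine was as strong, at -0.35, and that with guanine plus cytosine was 0.23. The correlation is across miRNAs of the same 6 arrays, which are not independent of each other, and with the 1-week difference it was 0.39. Of 79 miRNAs with 4 G in a row, 4 were higher (5.06%) and 0 lower, with a median of 0.05. Of all 438, 9.59% were higher and 7.31% lower. All DMM arrays were above all sham arrays for 16 of these 79 and below them for 1, against 17.4% and 18% of all 438. Mean level had a correlation of -0.003 with the difference over the 438. Only 26 of the 42 higher miRNAs have a sequence here, fewer than 80%, so no share of the higher miRNAs by composition is given. How probe or label chemistry treats these sequences was not tested.

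**Figure D2:**
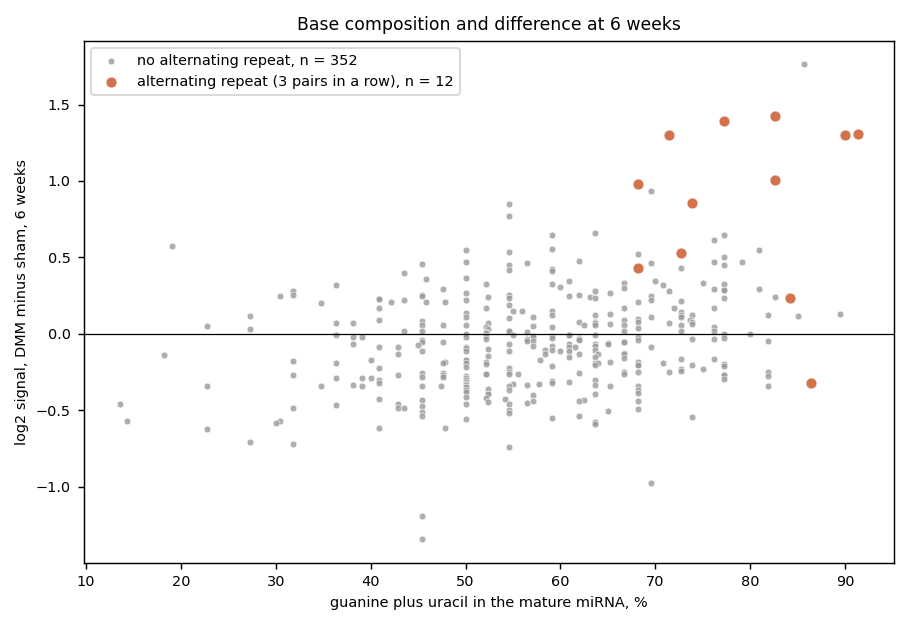
Guanine plus uracil in the mature miRNA (%) on the horizontal axis and the 6-week difference, log2 DMM minus sham, on the vertical axis, with a dot for each of 364 miRNAs and those with 3 alternating pairs in a row in orange (n = 12). The orange dots lie between -0.32 and 1.42, 11 of them above 0, and the grey dot above them all is miR-6931-5p at 1.76.

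The largest falls, those of miR-451a and miR-223-3p, were in blood cell miRNAs, and the other 30 falls were of 0.34 to 0.62 on the log2 scale. miR-451a, which is highly abundant in erythrocytes, had log2 signals of 8.23, 9.07 and 10.09 in sham and 7.35, 8.35 and 7.67 in DMM. DMM replicate 2 was above sham replicate 1, so the groups overlapped. The difference was -1.34 ± 0.42 (SE, limma adjusted p 0.0465), and it passed in 1 of the 6 fits with a 6-week array left out, the one without sham replicate 1. miR-486a-5p, the other erythroid miRNA measured, had 5.94, 6.35 and 6.28 in sham and 5.71, 5.58 and 5.76 in DMM, a difference of -0.50 with no overlap (adjusted p 0.0283).

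Of the 3 leukocyte miRNAs, 2 passed as lower. miR-223-3p, a myeloid miRNA, had 7.58, 8.34 and 9.01 in sham and 6.69, 7.59 and 7.08 in DMM, and the lowest sham array was just under the highest DMM array. Its difference of -1.19 ± 0.37 (SE, adjusted p 0.0465) also passed in 1 of 6 such fits. miR-342-3p fell by 0.57 on the log2 scale with no overlap, and miR-142a-3p, found throughout blood cells, had -0.98 ± 0.33 (SE, adjusted p 0.0566). The endothelial miR-126a-3p had 5.93, 6.21 and 7.18 in sham and 5.20, 6.30 and 5.61 in DMM, with -0.74 and an adjusted p of 0.248. In each of miR-451a, miR-223-3p, miR-142a-3p and miR-126a-3p, sham replicate 3 was the highest of the 6 arrays. The mean of the erythroid miRNAs was 7.09, 7.71 and 8.18 in sham replicates 1, 2 and 3 and 6.53 to 6.96 in DMM, and that of the leukocyte miRNAs 6.88, 7.47 and 8.02 and 6.29 to 6.78. In such tissue samples fewer cells of a type and less RNA per cell cannot be told apart.

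miR-210-3p, which hypoxia-inducible factor switches on, fell in all 3 DMM pools. It had 10.22, 10.31 and 10.45 in sham and 9.86, 9.80 and 9.56 in DMM. The difference of -0.59 ± 0.11 (SE, limma adjusted p 0.00662) passed in all 12 fits with an array left out. miR-107-3p, known for targeting messenger RNAs of metabolic and cell cycle genes, had 9.18, 9.34 and 9.16 in sham and 8.46, 8.53 and 8.83 in DMM. It fell by 0.62 (SE 0.11, adjusted p 0.00643), again in all 12 such fits. miR-103-3p, which shares its seed, had a difference of -0.26 with an adjusted p of 0.12 and no overlap between groups. miR-129-2-3p was dim and low in uracil and guanine (22.7%), with 6.04, 5.96 and 5.84 in sham and 5.29, 5.26 and 5.43 in DMM, and it fell by 0.62 (adjusted p 0.00643).

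The miR-15/16 family, which targets cyclin messenger RNAs and Bcl2, had differences below 0 in all 6 measured 5p members. Of these 6, 2 passed (33.3%, against 7.31% of all 438 that were lower). miR-15a-5p had 9.76, 9.98 and 9.84 in sham and 9.20, 9.32 and 9.41 in DMM, a difference of -0.55 ± 0.12 (SE, limma adjusted p 0.012). miR-15b-5p had 9.07, 9.0 and 9.11 in sham and 8.30, 8.61 and 8.66 in DMM, a difference of -0.54 ± 0.12 (SE, adjusted p 0.0118). The groups did not overlap for either, and only miR-15b-5p passed in all 12 fits with an array left out. miR-16-5p had -0.42, miR-195a-5p and miR-497a-5p -0.46 each and miR-322-5p -0.34, with adjusted p of 0.0657 to 0.0947. The family's median was -0.46.

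In other families 1 member or none passed, while 7.31% of all 438 miRNAs were lower. miR-100-5p fell by 0.51 while its seed partners miR-99a-5p and miR-99b-5p had -0.11 and 0.07 (adjusted p 0.442 and 0.739). miR-26b-5p fell by 0.44, and miR-26a-5p had -0.38 (adjusted p 0.0777). Of the 9 let-7 members listed, let-7d-5p fell by 0.37, and the median was -0.25. None of 5 miR-30 members passed, with a median of -0.33 and adjusted p from 0.0594 to 0.303.

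miRNAs of the Dlk1-Dio3 locus, an imprinted region of chromosome 12 from which the maternal copy makes a long array of miRNAs, include many of the falls. Of 27 listed members measured, 11 fell (40.7%, against 7.31% of all 438) and 0 rose, and the median was -0.39. All DMM arrays were below all sham arrays for 18 of the 27, against 79 of all 438 (18%). The count of falls in this list depended on the fit and on single arrays. It was 18 with array weights, 7 after quantile normalization and 2 with the replicate number as a block. With only the 6 arrays of 6 weeks it was 0, and without sham 1-week replicate 1 it was 4. Without a 6-week array it was 0 without DMM replicate 2 or sham replicate 2, 2 without sham replicate 3, 3 without DMM replicate 1, 11 without DMM replicate 3 and 15 without sham replicate 1, while the median stayed between -0.44 and -0.30. Most of them lie in a pair of stretches. In chr12:109544588-109618326 2 of 12 measured miRNAs fell (16.7%), and in chr12:109709065-109747914 8 of 18 fell (44.4%), with medians of -0.24 and -0.41. In the first, miR-434-3p had 7.60, 7.95 and 7.72 in sham and 7.33, 6.81 and 7.27 in DMM, a difference of -0.62 ± 0.16 (SE, limma adjusted p 0.022). In the second, miR-379-3p at chr12:109709102-109709123 and miR-411-3p at chr12:109710225-109710246, which share a seed, fell by 0.43 and 0.46. miR-154-5p and miR-329-3p fell by 0.49 each. DMM replicate 2 was the lowest of the 6 arrays for miR-434-3p, miR-154-5p, miR-329-3p, miR-299b-5p, miR-379-3p and miR-411-3p. The mean over the 18 miRNAs of the second stretch was 6.30, 6.57 and 6.42 in the sham replicates and 6.27, 5.98 and 6.12 in the DMM replicates, so that sham replicate 1 and DMM replicate 1 were nearly level.

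**Figure D3:**
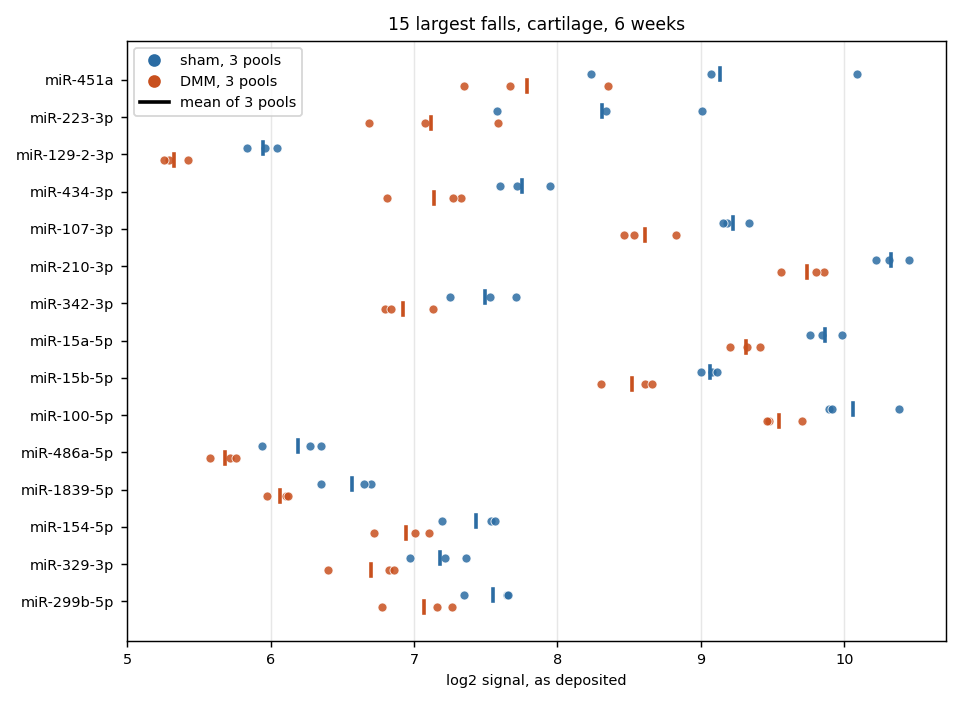
The 15 largest falls past the threshold, with the log2 signal as deposited on the horizontal axis, a dot for each pool (blue sham, orange DMM, 3 each) and a bar at each group's mean. miR-451a and miR-223-3p, at the top, are spread most and overlap, while the groups of the other 13 are apart.

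None of the miRNAs that mark cartilage itself passed. miR-140-3p had 13.52, 13.53 and 13.51 in sham and 13.12, 13.13 and 13.31 in DMM. The groups did not overlap, and the difference of -0.34 ± 0.11 (SE) had a limma adjusted p of 0.0558. miR-140-5p had 12.20, 12.01 and 12.00 in sham and 11.61, 11.75 and 11.95 in DMM, with -0.30 and an adjusted p of 0.156. miR-455-5p and miR-455-3p, made from a collagen gene, had -0.08 and -0.02, and the median of the 4 was -0.19. Among 5 miRNAs induced in inflammation 0 passed, with 3 differences above 0 and 2 below and a median of 0.25. The 2 below 0 were miR-146a-5p and miR-146b-5p, with a median of -0.12. Of these, miR-21a-5p had 7.94, 8.03 and 8.84 in sham and 8.37, 9.43 and 8.95 in DMM, with overlap and an adjusted p of 0.211, and miR-155-5p had 0.25 with no overlap and an adjusted p of 0.0738. Among muscle miRNAs, DMM replicate 3 was the highest of the 6 arrays for miR-1a-3p, miR-133a-3p and miR-133b-3p, at 7.61, 7.11 and 7.87. Among 5 fibroblast or mesenchymal miRNAs 0 passed, with a median of -0.19, and epithelial miRNAs were not among the rows tested.

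The arms of a precursor were then compared within each array, which takes out the scaling of the array. Of 38 precursors with both arms measured, the 5p minus 3p difference changed after DMM in 11 (28.9%), with the 5p arm relatively higher in 7 and the 3p arm in 4. The groups did not overlap in 16 of 38 (42.1%), and without sham replicate 1 the arm difference changed in 9. The fitted differences of the arms had opposite signs in all 11 and in 17 of the 38, and choosing precursors by a large 5p minus 3p change favours opposite signs. The size of a 5p minus 3p value also depends on the pair of probes, so only its change is described. Rows used here include arms whose own change is given above.

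For miR-574, the 5p minus 3p value was 3.35, 2.85 and 2.96 in sham and 4.35, 5.06 and 4.08 in DMM. The change was 1.45 ± 0.24 (SE, limma adjusted p 0.00168), with the UG-rich 5p arm higher by 1.30 and the 3p arm at -0.14. For miR-466i the change was 1.76 ± 0.31 (SE, adjusted p 0.00168), the largest of the 38. miR-466h (1.32), miR-466f (1.24) and miR-669f (1.14) changed the same way, with 3p arms between -0.47 and -0.36, none of which passed by itself. These precursors are related, and their 3p arms are the partners of the 5p arms that rose.

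The miR-15/16 precursors miR-195a and miR-15a changed the other way. For miR-195a the 5p minus 3p value was 2.83, 3.51 and 3.62 in sham and 1.82, 1.86 and 2.58 in DMM, a change of -1.23 ± 0.24 (SE, limma adjusted p 0.00233). For miR-15a it was 4.11, 4.68 and 4.67 in sham and 3.46, 3.36 and 3.60 in DMM, a change of -1.01 ± 0.20 (SE, adjusted p 0.00233). The groups did not overlap for either. In miR-15a both arms passed by themselves, the 5p arm as lower and the 3p arm as higher. miR-1839 had -0.76 and let-7d -0.42, while miR-652 had 0.51 and miR-23a 0.39. The calls of miR-574, miR-466i, miR-195a, miR-15a, miR-669f and miR-466f held under each of the 16 alternative fits, and that of let-7d was lost in 12 of them.

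**Figure D4:**
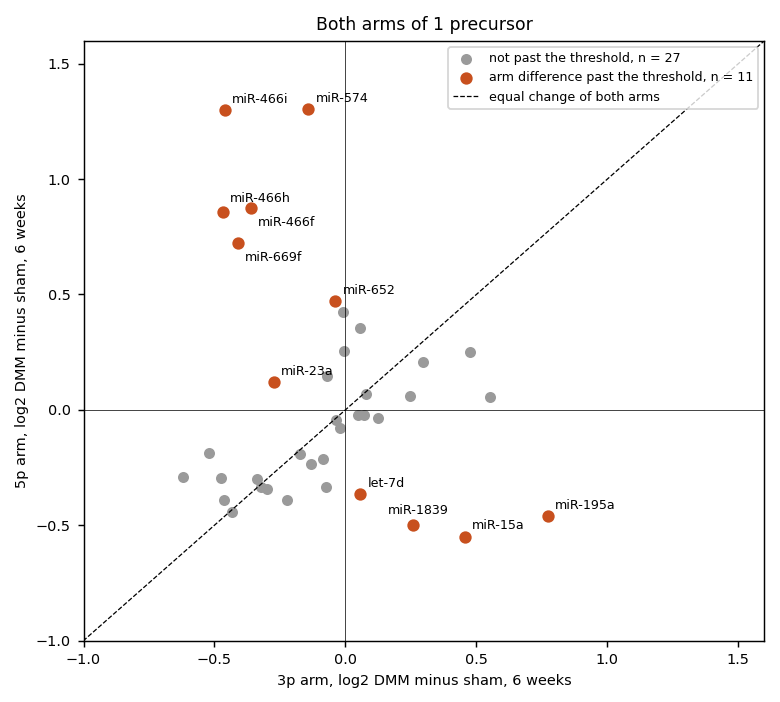
The change of the 3p arm on the horizontal axis and of the 5p arm of the same precursor on the vertical axis, both as log2 DMM minus sham at 6 weeks, with a dot for each of 38 precursors and the 11 with a changed arm difference in orange. Dots on the dashed line would have equal changes, and the orange dots lie above it on the upper left or below it on the lower right.

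At 1 week, in other pools, 69 of 438 miRNAs were higher after DMM (15.8%) and 53 lower (12.1%). All 15 of the largest 6-week rises were higher at 1 week too, 14 of them by more than at 6 weeks. The gradient score separated the 1-week arrays too, with 1.05, 1.28 and 1.64 in DMM against -0.60, -0.34 and -0.38 in sham, and its part in the likeness of the weeks was not tested. miR-5099 was the exception, with 0.41 ± 0.14 (SE) at 1 week and 1.47 at 6 weeks. At 1 week its log2 signals were 6.01, 5.80 and 6.33 in sham and 6.54, 6.49 and 6.35 in DMM, so all 3 DMM arrays were above sham but the nearest were almost level. Its change between weeks was 1.06 ± 0.19 (SE) with a limma adjusted p of 0.0565, and 0 of 438 changes between weeks passed (0%), with 13 at an unadjusted p under 0.05. miR-5099 passed under quantile normalization (1.12), without DMM 6-week replicate 3 (1.15) and without sham 1-week replicate 2 (1.19). Of the 15 largest falls, each had the same sign at 1 week and 4 passed there. miR-451a and miR-223-3p had 1-week differences of -0.003 and -0.004. The 12 miRNAs with UG repeats had 1-week differences from -0.46 to 1.92, and 10 of these passed as higher and 1 as lower.

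In subchondral bone at 6 weeks limma called 0 of 359 miRNAs between DMM and sham, with 3 at an unadjusted p under 0.05. Over the 359 miRNAs with a value on all 28 arrays, the DMM effect differed between cartilage and bone for 2 (0.557%). For miR-5099, bone had 6.01, 6.62, 6.35 and 5.89 in sham and 5.77, 5.62, 6.39 and 5.92 in DMM, a difference of -0.29 (95% interval -0.62 to 0.03). Cartilage minus bone was 1.77 ± 0.24 (SE, limma adjusted p 5.18e-05). For miR-6931-5p, bone had 7.88, 8.10, 8.42 and 8.12 in sham and 8.35, 8.00, 8.40 and 8.03 in DMM, with overlap, and cartilage minus bone was 1.70 ± 0.28 (SE, adjusted p 5.66e-04). Both passed under each of 17 alternatives. The 12 miRNAs with UG repeats had differences of -0.04 to 0.41 in bone, 11 of them above 0 and 0 past the threshold. Their cartilage minus bone differences were -0.28 to 1.02 with adjusted p of 0.772 to 0.961, so no difference between the tissues was shown for them. Bone arrays are of single mice. The SD of miR-140-3p was 0.33 over the 16 bone arrays and 0.19 over the 12 cartilage arrays. The spread of other miRNAs is not compared here. All cartilage arrays are of pools, so a part of pooling in such a difference of spread cannot be told apart from one of tissue. In the fit to all 28 arrays 2 of the 359 miRNAs passed for cartilage itself, miR-5099 and miR-6931-5p again.

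**Figure D5:**
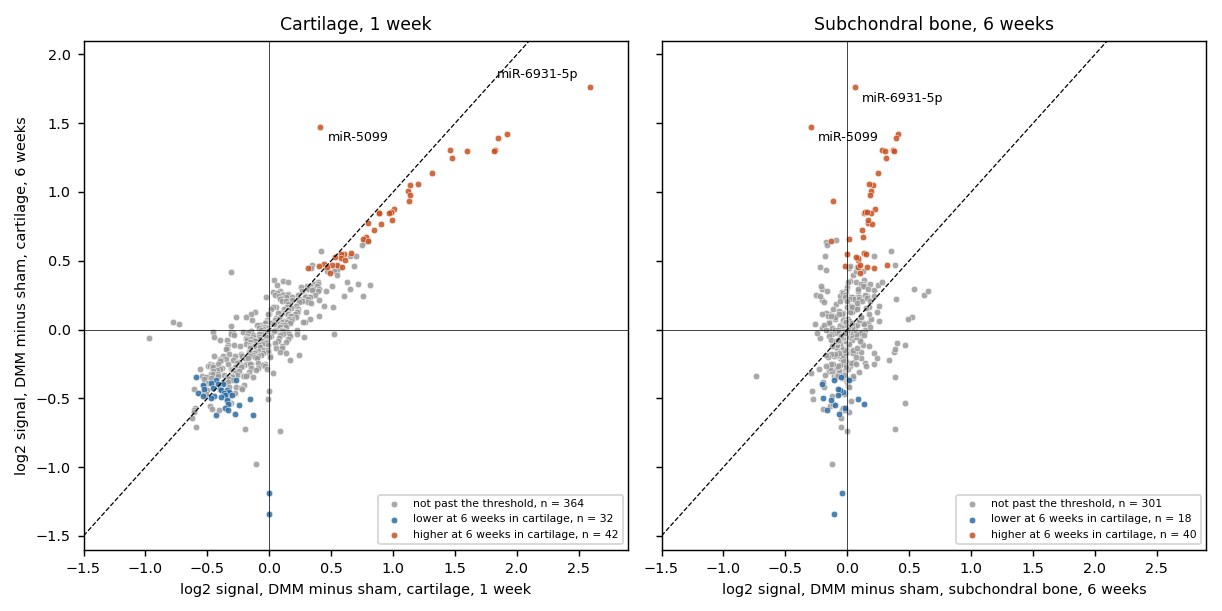
The 6-week cartilage difference on the vertical axis of both panels, against the 1-week cartilage difference (left, 438 miRNAs) and the 6-week bone difference (right, 359 miRNAs), all as log2 DMM minus sham, with miRNAs called in cartilage at 6 weeks in colour and the dashed line at equal values. miR-5099 and miR-6931-5p stand above the rest, miR-5099 near 0.41 on the left, and the bone differences of the 15 largest rises lie between -0.29 and 0.41.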

How the data were processed

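The authors deposited 1 table of log2 signals per miRNA and array, taken as log2 from its range, and these were not rescaled. limma 3.20.9 is named in the submitters' processing notes. How background, normalization and row filtering were handled is not given in the sources used. Groups came from the sample titles and the source field. limma 3.58.1 (R 4.3.3) fitted a mean per group to all 12 cartilage arrays over 438 miRNAs, with empirical Bayes moderation, two-sided tests, Benjamini-Hochberg adjustment over all rows and a threshold of 0.05. The same fit was run on 5p minus 3p values of 38 precursors, on the change between weeks, and on all 28 arrays over 359 rows for cartilage minus bone. P-values reflect variation between pools, or in bone between mice, and the small number of arrays limits the precision. Tested on simulated data for DMM against sham at 6 weeks over 438 rows, the fit called 46.1% of log2 changes of 0.5 and 96.9% of those of 1. The simulated noise was independent between miRNAs and arrays, with no gradient and no noisier array. These shares therefore need not hold for the real arrays.

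The text names the 15 largest rises and falls past the threshold, list members, other arms and seed partners, up to 10 precursors and the 5 largest changes of the other comparisons in each direction. Other miRNAs named were chosen after their values were seen. The members, lists and rule were chosen with earlier results of these data known. Alternatives were other scalings, filters, priors, weights, covariates, sets of arrays, a replicate block and each array left out. Tables and figures were made in Python 3.11.15 with pandas 2.3.3, numpy 2.4.6 and matplotlib 3.10.9. Mature sequences and loci were matched by name to RefSeq (GRCm38.p6) for 364 of the 438 miRNAs.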

Additional observations from a re-analysis of the deposited data

Results flagged for a closer look

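The effect of DMM at 6 weeks differed between cartilage and bone for miR-5099, by 1.77 ± 0.24 (SE) on the log2 scale, and for miR-6931-5p, by 1.70 ± 0.28 (SE), by limma's test of the difference itself over 359 miRNAs. Every DMM pool was above every sham pool in cartilage for both. Over 17 alternative fits the difference ranged from 1.63 to 1.92 for miR-5099 and from 1.54 to 1.91 for miR-6931-5p. The sources used do not say whether the tissues were normalized jointly. No label ties cartilage pools to bone mice, so the arrays were taken as independent, and a pairing of the tissues would not be reflected in these SEs.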

How the results depend on the processing

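The number of miRNAs past the threshold at 6 weeks, 74, was 40 of 219 when rows under the median level were dropped, 189 with array weights, 29 with only the 6 arrays of 6 weeks, 2 of 359 with all 28 arrays and 0 with the gradient score as a covariate. With the replicate block it was 43 (31 higher and 12 lower). Same-numbered DMM and sham pools had correlations of -0.45, -0.48 and -0.04 in their deviations from the group means, and other-numbered pools -0.17 to 0.57. The deviations within a group cancel out, which constrains these correlations, so they cannot decide on pairing. No label says that the numbers mark a shared batch, and they were not taken as pairs. Leaving out 1 array gave 20 to 166, from 20 without DMM 6-week replicate 2 to 166 without sham 6-week replicate 1. The 15 largest rises all passed under both other scalings and 12 passed in each fit with an array left out, while of the 15 largest falls 10 passed after quantile normalization and 4 in each of those fits. The arm count of 11 was 6 to 12 with 1 array left out, 6 without DMM 6-week replicate 2 and 7 without sham 6-week replicate 3. The count of changes between weeks, 0, was 1 after quantile normalization and 0 to 1 with 1 array left out. No called value of these comparisons changed its sign. The causes of these shifts were not tested. Scanner background values were not used here, so how near dim miRNAs lie to background is not known.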

Other observations

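The 3p arms of the miR-15/16 family that rose share a short stretch of letters, ugugcu, which lies outside the seed, and it was then searched for in the 364 mature sequences. It was chosen after the values were seen, so its counts are a description only. Of 11 miRNAs that hold it, 6 were higher (54.5%) and 0 lower at 6 weeks, with a median of 0.41. All DMM arrays were above all sham arrays for 9 of them. The shares over all 438 were 9.59% higher and 17.4% with all DMM arrays above. The rises of miR-195a-3p, miR-16-1-3p and miR-15a-3p, from which the stretch was read, are counted among the 6. The 6 were miR-195a-3p, miR-16-1-3p, miR-15a-3p, miR-7030-5p, let-7j and miR-700-5p. Their seeds differ, and miR-15a-3p and miR-16-1-3p both lie within the span of Dleu2. let-7j had 5.88, 5.39 and 5.37 in sham and 5.94, 6.16 and 5.97 in DMM, a difference of 0.47 with a limma adjusted p of 0.0465, and let-7i-5p, a bright miRNA with the same stretch, had -0.05. Most of the 11 were dim, with a median level of 5.67 against array medians of 6.26 to 6.32.

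miR-3470a, with 6.50, 6.79 and 6.62 in sham and 7.27, 7.14 and 6.85 in DMM, was the 1 higher miRNA of the 42 that did not pass at 1 week (0.31, adjusted p 0.0838).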
